A study of Rattus norvegicus with 18 samples.

Results

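The 10 genes described here are the ligands Tgfb1, Tgfb2, Tgfb3, Pdgfa and Pdgfb and the receptors Tgfbr1, Tgfbr2, Tgfbr3, Pdgfra and Pdgfrb, and every probe set that the platform annotation assigned to them was taken. This gave 13 of the 31042 probe sets that were not array controls, for 8 of the 10 genes; Tgfbr2 and Pdgfb were not analysed here. Of the 13 probe sets, 11 passed the filter on low signals and could be tested, covering all 8 genes. The other 2, both for Pdgfrb, were above the filter on 0 of 18 arrays. Lungs of Wistar rats were compared at fetal day 19 (FD19, called canalicular in the labels), at fetal day 22 (FD22) and in newborns 5 h after birth (P1). Fetuses were taken by Cesarean section and newborns were born vaginally, so birth, breathing and the route of delivery cannot be told apart between FD22 and P1. The animals were untreated and carried no named allele. Each stage had 3 litters and hence 3 lysates of whole lung, and each lysate gave 1 Affymetrix array of total RNA and 1 array of RNA from large polysomes (more than 7 ribosomes per mRNA), 18 arrays in 6 groups of 3.

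TGF-beta ligands are secreted in a latent form bound to matrix, and once released they join a type II receptor, which activates the type I receptor encoded by Tgfbr1 and through it the SMAD transcription factors. Tgfbr3 encodes betaglycan, a co-receptor that presents ligand, above all the product of Tgfb2. PDGF ligands are dimers that activate the receptor tyrosine kinases encoded by Pdgfra and Pdgfrb. In the lung, epithelium-derived PDGF-A acts on Pdgfra-positive mesenchyme, which gives rise to the myofibroblasts of the alveolar septa, and Pdgfrb is typical of pericytes. Both pathways are known for their part in branching, in septation and in the walls of vessels.

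Values are array signals (linear intensity, scaled by the authors to a common mean). Differences are in log2(signal + 5.5) and are given ± the SE (standard error) that limma estimated, from groups of 3 arrays. A probe set is said to have risen, fallen or been called where the limma p, adjusted over all 21675 probe sets tested, was under 0.05. A ratio is the polysomal over total signal on the log2 scale, and it is relative, since both kinds of array were scaled alike. In whole lung, fewer cells of a type and less RNA per cell cannot be told apart.

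The array medians lay between 51.6 and 73.5, and the array numbered 1 had the lowest median in 6 of 6 groups. The labels record no processing batch. The surfactant gene Sftpc, a marker of lung epithelium, had a signal of 3836 or more on all 18 arrays. Summed signals of 8 epithelial marker genes in total RNA were 12300 to 13400 at FD19 (lowest to highest array), 21664 to 25009 at FD22 and 23512 to 25184 at P1. Of these 8 genes, 4 rose and 1 fell from FD19 to FD22 in total RNA, beside 8.42% and 7.82% of all probe sets. The sums therefore do not stand for each of the genes. Both arrays of FD22 replicate 2 stood apart in the liver gene Alb, with signals of 5662 in total and 4891.5 in polysomal RNA, against 31.6 to 147 on the other 16 arrays. Heart genes also varied over the 18 arrays, Nppa from 71.6 to 2708.7, Myh6 from 96 to 1157.2 and Tnnt2 from 112.8 to 676.5. Without FD22 replicate 2, 3 of the 11 probe sets were called from FD19 to FD22 in total RNA (4 with it), 2 in polysomal RNA (2 with it) and 1 for the FD22 ratio (2 with it), where 16.2%, 15.9% and 15.4% of all probe sets were called with it. The shares of all probe sets without it are not given, so the change in these counts shows nothing particular to the 11. The part of these marker and array differences in the results below was not tested.

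The promoters of Tgfbr1 and Tgfbr3 are printed because these are the receptors with a probe set that rose in total RNA at FD22. Each window holds the first 200 bases of the RefSeq promoter entry (build GRCr8, plus strand) and lies upstream of the annotated gene, from 200 to 1 bases before its start for Tgfbr1 and from 250 to 51 for Tgfbr3. Capitals mark matches to the GC box (GGGCGG) or the CCAAT box (CCAAT) on either strand.
Tgfbr1, chr5:66449148-66449347: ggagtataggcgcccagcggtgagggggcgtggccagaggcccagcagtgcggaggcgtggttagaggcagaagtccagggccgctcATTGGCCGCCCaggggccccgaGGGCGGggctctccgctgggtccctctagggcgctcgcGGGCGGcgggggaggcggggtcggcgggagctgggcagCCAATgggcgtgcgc
Tgfbr3, chr14:2634044-2634243: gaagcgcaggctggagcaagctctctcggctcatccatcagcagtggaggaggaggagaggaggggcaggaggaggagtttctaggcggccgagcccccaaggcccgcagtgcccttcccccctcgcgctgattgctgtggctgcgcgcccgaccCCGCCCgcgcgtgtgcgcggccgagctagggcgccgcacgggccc
The Tgfbr1 window was 76.0% G and C, with 3 GC boxes and 2 CCAAT boxes. The first run of capitals there is a CCAAT box and a GC box, both on the minus strand, that adjoin without sharing a base. The Tgfbr3 window was 72.5% G and C and held 1 GC box and 0 CCAAT boxes. Among the first 200 bases of all 33469 RefSeq promoter entries, 24.2% held a GC box and 28.8% a CCAAT box. Neither window held the letters of a TATA box (TATAAA), a SMAD box (CAGACA), an E-box (CACGTG), an AP-1 site (TGANTCA) or a CRE (TGACGTCA), which 9.98%, 14.4%, 4.18%, 5.22% and 0.944% of windows held. These matches describe the letters alone.

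Tgfb2, a ligand that betaglycan helps to present, fell between FD19 and FD22 in total RNA. Its gene lies on GRCr8 chromosome 13, 100691540 to 100793227. The probe set 1387172_a_at had signals of 432.4, 521.8 and 539.8 at FD19, 210.3, 171.7 and 170 at FD22 and 239.5, 268.1 and 217.2 at P1. All 3 FD19 arrays lay above all 6 later ones. The mean fell from 498 ± 57.5 (SD, n = 3) to 184 ± 22.8, a log2 difference of -1.41 ± 0.15 (2.66-fold lower, adjusted p = 3.45e-06), and of -1.36 without FD22 replicate 2 (adjusted p = 4.63e-05). The second probe set, 1388011_a_at, gave 351, 309.9 and 356.4 at FD19, 130.5, 157.7 and 146.8 at FD22 and 153.6, 176.6 and 140.5 at P1. It fell by 1.20 ± 0.15 between FD19 and FD22 (adjusted p = 2.8e-05), again with no overlap, and over the 18 arrays the log2 signals of the 2 probe sets correlated with r = 0.912, as a description. P1 remained below FD19 by log2 differences of -1.03 ± 0.15 (adjusted p = 3.69e-05) and -1.09 ± 0.15 (adjusted p = 3.01e-05).

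Polysomal Tgfb2 fell over the same fetal interval. Signals of 1387172_a_at on large polysomes were 315.9, 402.4 and 368.3 at FD19, 182.9, 187.6 and 228.2 at FD22 and 258.1, 237.5 and 213.6 at P1. The FD19 arrays were again the highest, and the difference at FD22 was -0.84 ± 0.15 (adjusted p = 0.000588). For 1388011_a_at the polysomal signals were 181.3, 262.2 and 210.6 at FD19, 111.6, 144.2 and 119.9 at FD22 and 154.7, 176.6 and 162.6 at P1, with a difference of -0.77 ± 0.15 between FD19 and FD22 (adjusted p = 0.00188). From FD19 to P1 the first probe set fell by 0.60 ± 0.15 (adjusted p = 0.0044), while the second stood at -0.38 ± 0.15 (adjusted p = 0.0725), with an adjusted p of 0.0404 without FD19 replicate 1. Across birth neither probe set was called in either RNA. The P1 arrays lay above the FD22 arrays without overlap for 1387172_a_at in total RNA (0.38 ± 0.15, adjusted p = 0.174) and for 1388011_a_at in polysomal RNA (0.39 ± 0.15, adjusted p = 0.138).

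Marker genes of smooth muscle and pericytes moved in the same direction as Tgfb2. Summed signals of 7 of 7 marker genes in total RNA were 3029.7 to 4045.9 at FD19, 2023.6 to 2282.6 at FD22 and 2073.8 to 2841.3 at P1, and on polysomes 3161.4 to 3484.3, 1823.2 to 2130.6 and 2365.2 to 3111.5. Of these 7 genes, 3 fell and 0 rose in total RNA from FD19 to FD22, and 4 fell and 0 rose in polysomal RNA. Of all probe sets, 7.82% fell in total RNA and 7.7% on polysomes over this interval. Most erythroid marker genes tested also fell from FD19 to FD22. Of the 4 of 5 listed that were tested, 3 fell and 0 rose in total RNA over this interval (median -1.03), and 4 fell on polysomes (median -1.14). These counts include Hbz, which was above the filter on 3 of 18 arrays. Its mean signals at FD22 were 5.43 in total and 2.03 in polysomal RNA, so its falls rest on signals at background. From FD19 to P1 in total RNA, 1 erythroid gene rose and 3 fell, beside 12.4% and 13.7% of all probe sets. The summed signals of the erythroid genes were 2740 to 4284.2 at FD19, 2646.7 to 2939.9 at FD22 and 2874.1 to 4037.9 at P1 in total RNA, and 1351.8 to 2181.5, 794.7 to 1201.4 and 855.4 to 1146.2 on polysomes. Unlike the Tgfb2 signals, these sums overlapped between all stages in total RNA. The part of either marker list in the Tgfb2 values was not tested.

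**Figure D1:**
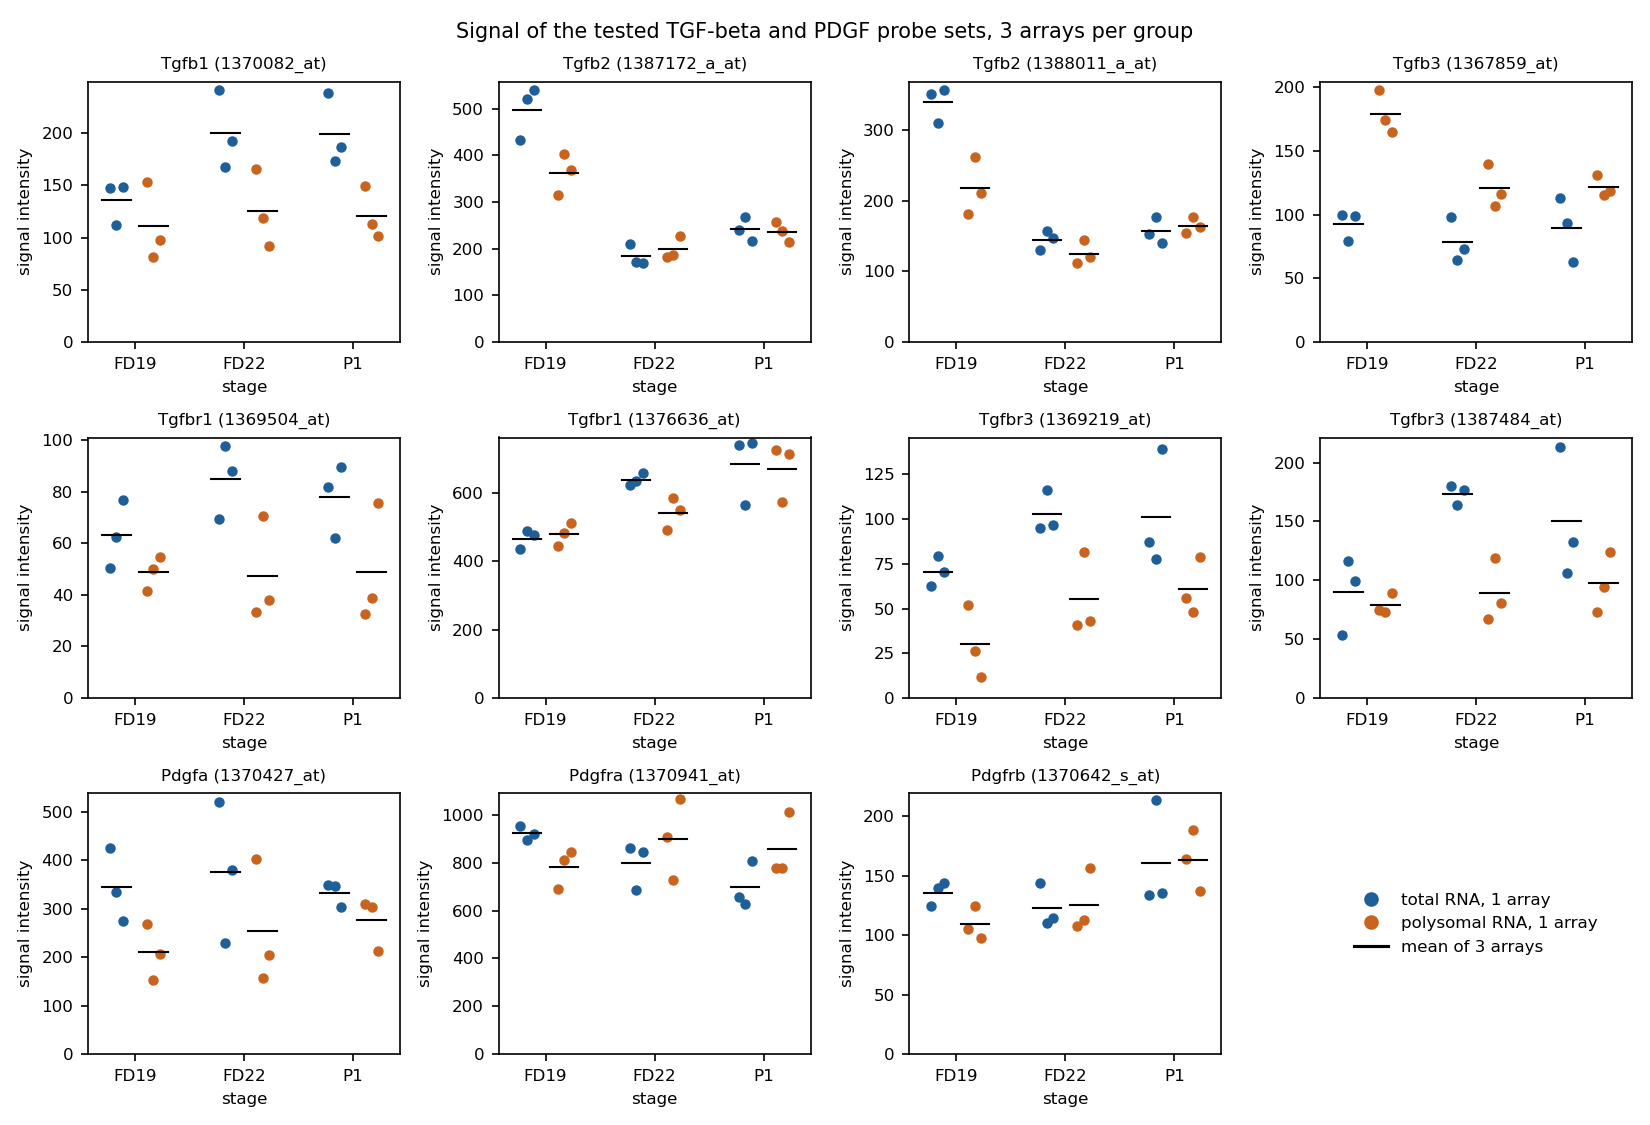
Array signal (linear intensity, vertical axes from 0) of the 11 tested probe sets by stage, in total RNA (blue) and polysomal RNA (orange). Points are single arrays and bars the means of 3 arrays. Both Tgfb2 probe sets are highest at FD19, and the 3 polysomal Tgfb3 points at FD19 (164.4 to 197.6) lie above all other Tgfb3 arrays.

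Tgfb3 (chromosome 6, 111435170 to 111457646), a ligand needed for the fusion of the palate and expressed in lung mesenchyme, was brighter on polysomes than in total RNA in all 9 lysates, also after quantile normalization and median centring. In total RNA the signals of 1367859_at were 99.4, 79.2 and 98.7 at FD19, 97.7, 64 and 72.8 at FD22 and 113, 93 and 62.9 at P1. In polysomal RNA they were 197.6, 173.8 and 164.4 at FD19, 139.8, 106.7 and 116.4 at FD22 and 131.4, 115.7 and 118.2 at P1. The polysomal and total groups did not overlap at any stage. The ratio was 0.91 ± 0.20 at FD19 (adjusted p = 0.00319), 0.61 ± 0.20 at FD22 (adjusted p = 0.0425) and 0.45 ± 0.20 at P1 (adjusted p = 0.116).

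With the lysate as a block, the Tgfb3 ratio was called at all 3 stages, with adjusted p of 0.000672, 0.0112 and 0.0404. Without a block, the FD19 call ended without FD19 replicate 2 (adjusted p = 0.0504) and the FD22 call without FD22 replicate 1, 2 or 3 (0.0634, 0.141 and 0.180). The FD22 call also ended without a filter and with only the groups compared. In polysomal RNA, Tgfb3 fell from FD19 to P1 (-0.53 ± 0.20, adjusted p = 0.0488), a call that ended in 11 of 16 alternatives. These were leaving out FD19 replicate 1, 2 or 3 (0.165, 0.0992 and 0.0787) or P1 replicate 2 or 3 (0.132 and 0.0719), the arrays numbered 2 and 3 alone (0.0975), quantile normalization (0.137), median centring (0.119), no filter (0.0735), no variance trend (0.0534) and the constant at the 1st percentile (0.0530). The difference from FD19 to FD22 on polysomes was -0.55 ± 0.20 (adjusted p = 0.0657; 0.0150 with the replicate number as a block and 0.0428 without FD22 replicate 1). In total RNA no stage difference of Tgfb3 was called, the largest being -0.24 ± 0.20 from FD19 to FD22 (adjusted p = 0.465). The array numbered 1 had the highest Tgfb3 signal in 6 of 6 groups, and its part was not tested.

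Tgfb1 (chromosome 1, 90324312 to 90340627), the ligand named most often in fibrosis and inflammation, was dimmer on polysomes than in total RNA in 8 of 9 lysates, also after both rescalings. In total RNA the signals of 1370082_at were 147.2, 112.3 and 148.5 at FD19, 241.6, 167.4 and 192.4 at FD22 and 238.3, 173.1 and 186.8 at P1. The FD19 arrays lay below all later total arrays, yet the difference from FD19 to FD22 was not called (0.54 ± 0.24, adjusted p = 0.138). P1 against FD19 stood at 0.53 ± 0.24 (adjusted p = 0.109; 0.0138 with the replicate number as a block).

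Polysomal Tgfb1 signals were 153.6, 81.8 and 98.2 at FD19, 166, 119.2 and 92.4 at FD22 and 149.3, 113.1 and 101.2 at P1. These 3 groups overlapped throughout, and the largest stage difference was 0.18 ± 0.24 (adjusted p = 0.690). Ratios by lysate were 0.06, -0.43 and -0.57 at FD19, -0.53, -0.47 and -1.02 at FD22 and -0.66, -0.59 and -0.85 at P1. The lysates of FD22 and P1 were all below 0, and the polysomal and total groups did not overlap at these stages. Only P1 was called (-0.70 ± 0.24, adjusted p = 0.0462), a call that ended without P1 replicate 1, 2 or 3 (0.112, 0.130 and 0.215), with median centring (0.187) and with quantile normalization (0.0684). The call also ended without a filter and without a variance trend. FD22 stood at -0.67 ± 0.24 (adjusted p = 0.0608). With the lysate as a block both stages were called (adjusted p of 0.00681 at FD22 and 0.00464 at P1). The array numbered 1 had the highest Tgfb1 signal in 5 of 6 groups; its part was not tested.

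Platelets carry TGF-beta and PDGF, and the summed signal of 4 of their markers, mostly that of Pf4, was higher at the later stages. Pf4 ran from 262.7 to 1022.8 over the 18 arrays, while Ppbp and Gp9 were above the filter on only 5 and 8 of them. Of 4 tested platelet genes only Pf4 rose from FD19 to FD22 in total RNA (0.90 ± 0.20, adjusted p = 0.00460), and 0 fell. Summed signals of 4 of 5 platelet marker genes were 419.6 to 526.7 at FD19, 815.7 to 887.9 at FD22 and 1006 to 1190.4 at P1 in total RNA, and 351.8 to 428.8, 483.9 to 836.7 and 602.5 to 840.5 in polysomal RNA. Those of 5 leukocyte genes were 1952.8 to 2211, 6255.1 to 9538.4 and 6598.2 to 7896.8 in total RNA. Their part in the Tgfb1 values was not tested.

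Tgfbr1 (chromosome 5, 66449348 to 66506371), the type I receptor, rose in total RNA through its brighter probe set, 1376636_at. Total signals were 434.2, 486.9 and 475 at FD19, 620.8, 634.1 and 658.5 at FD22 and 739.8, 565 and 745.4 at P1. All later arrays lay above those of FD19. The differences from FD19 were 0.45 ± 0.13 at FD22 (adjusted p = 0.0234) and 0.54 ± 0.13 at P1 (adjusted p = 0.00455). On polysomes the signals were 443.5, 481.3 and 511.9 at FD19, 491.5, 584 and 548.3 at FD22 and 723, 573.8 and 712.3 at P1. The polysomal FD19 and FD22 arrays overlapped (0.17 ± 0.13, adjusted p = 0.431) and those of FD19 and P1 did not (0.47 ± 0.13, adjusted p = 0.0100).

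The FD22 call of 1376636_at in total RNA ended without FD19 replicate 1, 2 or 3 (adjusted p of 0.0987, 0.0554 and 0.0663) and without FD22 replicate 2 or 3 (0.0550 and 0.0748), and with median centring (0.38, adjusted p = 0.0719). The polysomal call at P1 ended without FD19 replicate 1 (0.0510). With the arrays numbered 2 and 3 alone, all 3 calls ended (0.111, 0.0796 and 0.129). The other probe set of Tgfbr1, 1369504_at, was dim, at 32.6 to 97.7 and above the filter on 14 of 18 arrays. It was called in no comparison, and over the 18 arrays it followed the brighter one with r of 0.426, as a description. Its polysomal signal was below the total signal in 9 of 9 lysates under all 3 scalings. Its arrays under the filter were all polysomal, at FD22 (33.3 and 37.9) and P1 (32.6 and 38.9). The ratios at these stages thus rest in part on signals under the filter. The ratio of 1369504_at was -0.83 ± 0.28 at FD22 (adjusted p = 0.0532; 0.00966 with the lysate as a block) and -0.68 ± 0.28 at P1 (0.105; 0.0241 with the block). For 1376636_at no ratio was called, and the values ran from -0.24 at FD22 to 0.04 at FD19, the latter -0.02 after quantile normalization.

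Tgfbr3 (chromosome 14, 2634294 to 2810269), which encodes betaglycan, rose in total RNA from FD19 to FD22 through 1387484_at. Its total signals were 53.6, 116.2 and 99.6 at FD19, 180, 164.3 and 176.4 at FD22 and 213.3, 106.4 and 132.6 at P1. The FD22 arrays lay above all FD19 arrays (0.97 ± 0.27, adjusted p = 0.0195), whereas P1 overlapped FD19 (0.72 ± 0.27, adjusted p = 0.0599; 0.0382 without FD19 replicate 2 and 0.0365 without P1 replicate 2). That P1 difference was 0.14 with the arrays numbered 2 and 3 alone (adjusted p = 0.729), 0.41 without FD19 replicate 1 (0.332) and 0.45 without P1 replicate 1 (0.271). The FD22 call ended without FD19 replicate 1, the dimmest array (0.66, adjusted p = 0.143), and without FD22 replicate 3 (0.0644). That call also ended with the arrays numbered 2 and 3 alone. On polysomes the signals were 75.2, 72.7 and 88.9 at FD19, 67.4, 119.1 and 81 at FD22 and 73.4, 94.4 and 124.3 at P1. Those 3 groups overlapped, and no polysomal stage difference was called for this probe set.

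The ratio of 1387484_at was -0.96 ± 0.27 at FD22 (adjusted p = 0.0240), where polysomal and total arrays did not overlap. This call ended without FD22 replicate 1 (adjusted p = 0.148) or 3 (0.153) and with median centring (0.0529). At FD19 its ratio was -0.11 ± 0.27 (adjusted p = 0.801), or 0.05 after median centring. The other probe set, 1369219_at, gave total signals of 62.4, 79.2 and 70.3 at FD19, 95.1, 116.3 and 96.8 at FD22 and 87.3, 77.8 and 139.3 at P1. Its polysomal signals were 52.1, 26.4 and 11.8 at FD19, 40.7, 81.8 and 43 at FD22 and 55.8, 48 and 78.8 at P1. Polysomal signal was below total in 9 of 9 lysates under all 3 scalings, and the FD19 polysomal arrays included 2 under the filter of 40.8.

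For 1369219_at the ratio was -1.26 ± 0.34 at FD19 (adjusted p = 0.0137), and the polysomal signal rose from FD19 to P1 by 1.04 ± 0.34 (adjusted p = 0.0268) with overlapping groups. Both calls ended without FD19 replicate 3, where the ratio was -0.82 (adjusted p = 0.162) and the rise 0.60 (0.205). The ratio call also ended without FD19 replicate 2 (0.107), and the rise without FD19 replicate 2 (0.0738) or P1 replicate 1 or 3 (0.0573 and 0.109). Nor was the rise called with only the groups compared or with the replicate number as a block (0.0542). The polysomal difference from FD19 to FD22 was 0.87 ± 0.34 (adjusted p = 0.0913), 1.31 (0.0151) without FD19 replicate 1, 1.47 (0.0268) with the arrays numbered 2 and 3 alone, 0.44 (0.449) without FD19 replicate 3 and 0.58 (0.332) without FD22 replicate 2. With the lysate as a block the FD22 ratio of -0.89 ± 0.34 (adjusted p = 0.0808) was called too (0.0273). The 2 Tgfbr3 probe sets correlated with r of 0.623 over the 18 arrays, as a description, and they differed in which stage gave a called ratio.

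Pdgfa (chromosome 12, 20759366 to 20780337), the ligand made by lung epithelium, was called in no comparison of the fit over all 18 arrays without a block, and the spread within its groups was wide. Signals of 1370427_at in total RNA were 425.6, 334.3 and 274.4 at FD19, 518.8, 229.1 and 379.6 at FD22 and 347.6, 347.4 and 302.4 at P1. On polysomes they were 269, 152.5 and 207.1, then 402.4, 157.5 and 203.6, then 310.2, 302.5 and 213.5. Polysomal signal was below total in 9 of 9 lysates (8 after median centring), although the groups separated only at FD19. The polysomal signal averaged 60.8%, 66.5% and 82.2% of the total signal at FD19, FD22 and P1. The ratios were -0.72 ± 0.31 (adjusted p = 0.101), -0.59 ± 0.31 (0.197) and -0.28 ± 0.31 (0.558), and with the lysate as a block those of FD19 and FD22 were called (0.00269 and 0.0108). A fit of the 2 FD19 groups alone also called the first (0.0332). The array numbered 1 had the highest Pdgfa signal in 6 of 6 groups.

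Pdgfra (chromosome 14, 33360027 to 33408604) encodes the receptor of the mesenchymal cells that Pdgfa reaches. Signals of 1370941_at in total RNA were 952.2, 895.5 and 918.8 at FD19, 862.3, 686.9 and 843.4 at FD22 and 656.1, 628.2 and 805.1 at P1. The FD19 arrays were the highest, and the difference at P1 was -0.41 ± 0.15 (adjusted p = 0.0535; 0.0189 with the replicate number as a block and 0.0244 without P1 replicate 3). On polysomes the signals were 691.5, 812.3 and 845.5 at FD19, 905.8, 728.9 and 1067 at FD22 and 777.8, 777.1 and 1010.9 at P1, with overlap between all stages.

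Pdgfra was below its total signal on polysomes in all 3 FD19 lysates and above it in all 6 lysates of FD22 and P1. After median centring 1 lysate was below and 8 were above, and after quantile normalization 5 were below, all 3 of FD19 and 2 of FD22. The mean polysomal signal was 84.7%, 112% and 122% of the total at FD19, FD22 and P1. No single ratio was called (-0.24 ± 0.15, 0.16 ± 0.15 and 0.29 ± 0.15, with adjusted p of 0.278, 0.488 and 0.195). The change of the ratio from FD19 to P1 was 0.53 ± 0.21, with a 95% interval of 0.06 to 1.00 and an adjusted p of 0.396 (unadjusted 0.0233). With the lysate as a block its adjusted p was 0.0968. Summed signals of the 5 mesenchymal marker genes, of which Pdgfra is 1, were 14408 to 15375, 13474 to 14799 and 12953 to 13642 in total RNA over the 3 stages and 8064 to 8687, 9057 to 11229 and 9201 to 10557 on polysomes. These sums rest mostly on Col1a1 (1992.5 to 4684.6 over the 18 arrays), Col1a2 (1926.3 to 4137) and Col3a1 (2006.6 to 4963.8). In total RNA 1 of the 5 genes rose and 0 fell from FD19 to FD22, and 1 rose and 1 fell from FD19 to P1. The shares of all probe sets called in either direction were 16.2% and 26.2%. The part of these marker values in the Pdgfra ratio was not tested.

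Pdgfrb (chromosome 18, 56770348 to 56809228), the pericyte receptor, was measured by 1370642_s_at. Total signals were 124.4, 139.4 and 143.6 at FD19, 143.6, 110.4 and 114.6 at FD22 and 133.9, 213.4 and 135.7 at P1. The 3 stages overlapped, with the highest value in P1 replicate 2. On polysomes the signals were 105.4, 124.5 and 97.9 at FD19, 107.9, 113 and 156.4 at FD22 and 164.1, 188.5 and 137.4 at P1. The polysomal P1 arrays lay above those of FD19 (0.55 ± 0.19, adjusted p = 0.0377), a call that ended without FD19 replicate 1 or 3 (0.103 and 0.145) or P1 replicate 1 or 2 (0.0822 and 0.0978). The call also ended without a filter and with the arrays numbered 2 and 3 alone. Ratios were not called at any stage. The 2 untested Pdgfrb probe sets, 1379211_at and 1391394_s_at, gave 4.6 to 28.4 and 4.9 to 18.7.

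**Figure D2:**
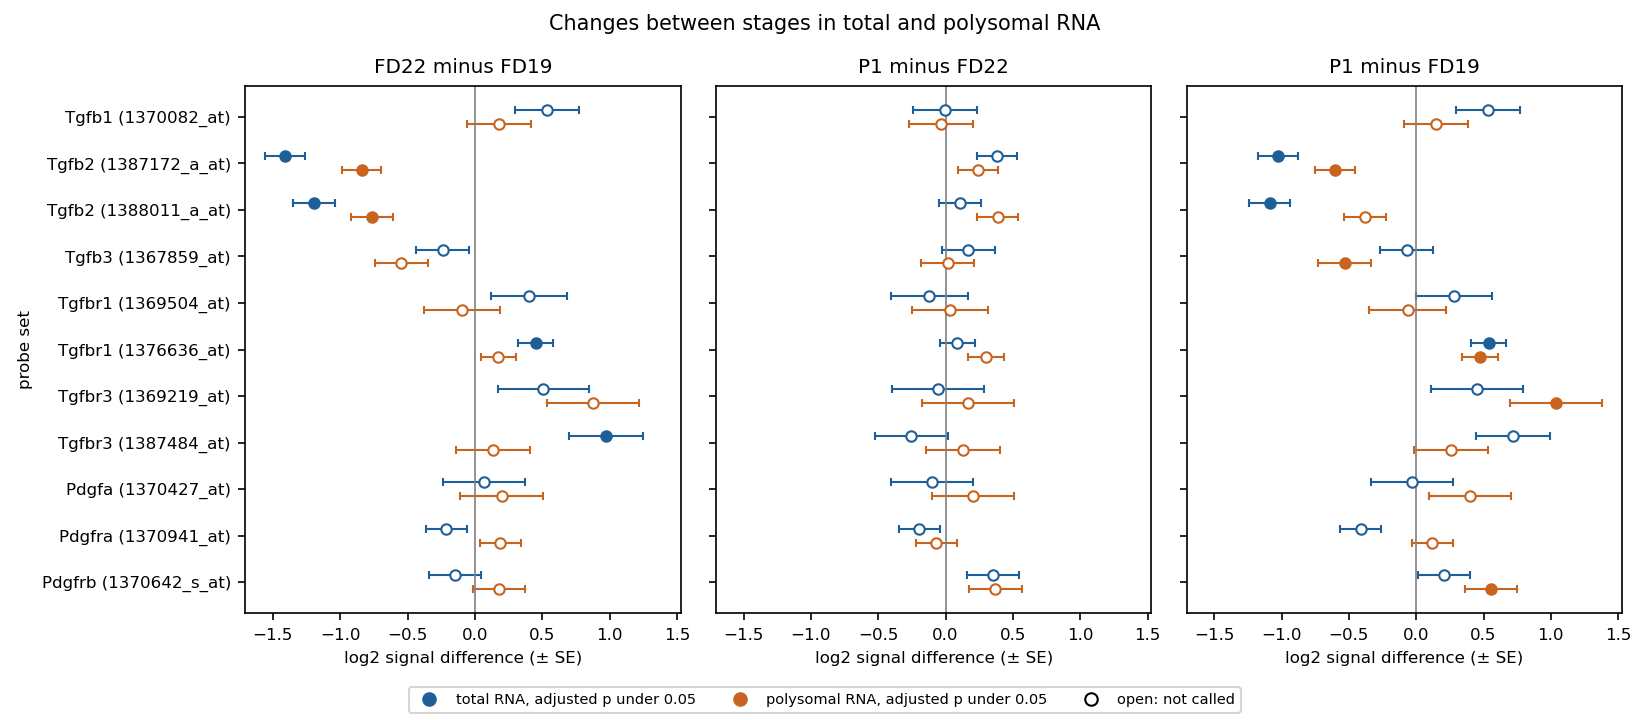
Differences between stages (log2 signal, points with SE) of the 11 tested probe sets in total RNA (blue) and polysomal RNA (orange), filled where the adjusted p was under 0.05. Tgfb2 lies furthest below 0 in the panels that compare FD22 and P1 with FD19, and no point is filled between FD22 and P1.

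Calls of the 11 probe sets are set here beside those of all probe sets. From FD19 to FD22 in total RNA 2 were higher (Tgfbr1 and Tgfbr3) and 2 lower (both of Tgfb2), 4 of 11, while 16.2% of all probe sets were called (8.42% higher, 7.82% lower). From FD19 to P1 in total RNA 1 was higher and 2 were lower, beside 26.2% of all (12.4% higher, 13.7% lower), and with the replicate number as a block 5 of 11 were called beside 29.2% of all. On polysomes 0 were higher and 2 lower from FD19 to FD22, beside 15.9% of all (8.22% higher, 7.7% lower). From FD19 to P1 on polysomes 3 were higher and 2 lower, beside 28.9% of all (13.1% higher, 15.8% lower). The arrays of the 2 stages did not overlap for 7 of 11 in total RNA from FD19 to FD22 (33.3% of all probe sets) and for 5 of 11 from FD19 to P1 (42.7%). On polysomes the groups did not overlap for 3 of 11 from FD19 to FD22 (32.3%) and for 5 of 11 from FD19 to P1 (43.6%). With 11 probe sets these counts set nothing apart from the rest of the array.

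Across birth, from FD22 to P1, limma called 0 of the 11 in total RNA, where 3.97% of all probe sets were called and 1 of the 11 had an unadjusted p under 0.05. On polysomes it also called 0, beside 8.34% of all and 2 with an unadjusted p under 0.05. The median difference of the 11 was 0.17 on polysomes, against -0.03 for all probe sets, and -0.00 against -0.05 in total RNA. The FD22 and P1 arrays did not overlap for 1 of 11 in total RNA (20.8% of all) and for 1 of 11 on polysomes (23%). That a p missed the threshold does not show that these genes were equal before and after birth.

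For the ratio, 1 was higher and 3 were lower at FD19, 4 of 11, beside 20.9% of all (9.97% higher, 10.9% lower). At FD22 the count was 1 higher and 1 lower beside 15.4% (6.76% and 8.6%), and at P1 0 higher and 1 lower beside 18.5% (8.12% and 10.4%). Polysomal and total arrays did not overlap for 6 of 11 at FD19 (43% of all probe sets), 5 at FD22 (29.6%) and 2 at P1 (35.8%). With the lysate as a block the counts were 5, 6 and 3 of 11, beside 31.3%, 26.1% and 27.9% of all probe sets. Tgfb2 was called lower on polysomes at FD19 through both probe sets (-0.45 ± 0.15, adjusted p = 0.0353, and -0.64 ± 0.15, adjusted p = 0.00696). The first of these calls ended without FD19 replicate 1, 2 or 3 (0.0917, 0.116 and 0.202) and with median centring (-0.29, 0.214), and the second without FD19 replicate 1 or 3 (0.0914 and 0.0874). Both calls also ended with the arrays numbered 2 and 3 alone. At FD22 and P1 no Tgfb2 ratio was called, and the values were 0.11 and -0.03 for 1387172_a_at (the latter 0.17 after median centring) and -0.21 and 0.07 for 1388011_a_at (the former 0.02 after centring).

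Centring each array on its median raised the median ratio of all probe sets by 0.17, 0.23 and 0.20 at FD19, FD22 and P1. The calls of the 11 were then 1 higher and 2 lower, 1 higher and 0 lower, and 2 higher and 0 lower, and those of all probe sets 3543 higher and 1283 lower, 3593 and 907, and 3415 and 1135, where the values as scaled by the authors gave 2161 and 2364, 1465 and 1864, and 1760 and 2244. Tgfb3 was among the higher calls of the 11 at P1 under this centring (0.65, adjusted p = 0.0386), as was Pdgfra (0.49, adjusted p = 0.0362).

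Changes of the ratio between stages were called for 0 of the 11 in all 3 comparisons, beside 0%, 0.0138% and 0.115% of all probe sets. With the lysate as a block 0 of the 11 were called again, beside 0%, 0.0784% and 1.04% of all probe sets. From FD19 to P1 the adjusted p with this block was 0.0968 for Tgfb2 1388011_a_at and 0.0968 for Pdgfra. Without a block, limma gave an unadjusted p under 0.05 for 2 of 11 from FD19 to FD22, 0 from FD22 to P1 and 2 from FD19 to P1. Tgfb2 1388011_a_at had a ratio change of 0.71 ± 0.22 from FD19 to P1 (95% interval 0.24 to 1.18, adjusted p = 0.228), and 1387172_a_at one of 0.57 ± 0.21 from FD19 to FD22 (0.11 to 1.02, adjusted p = 0.999).

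**Figure D3:**
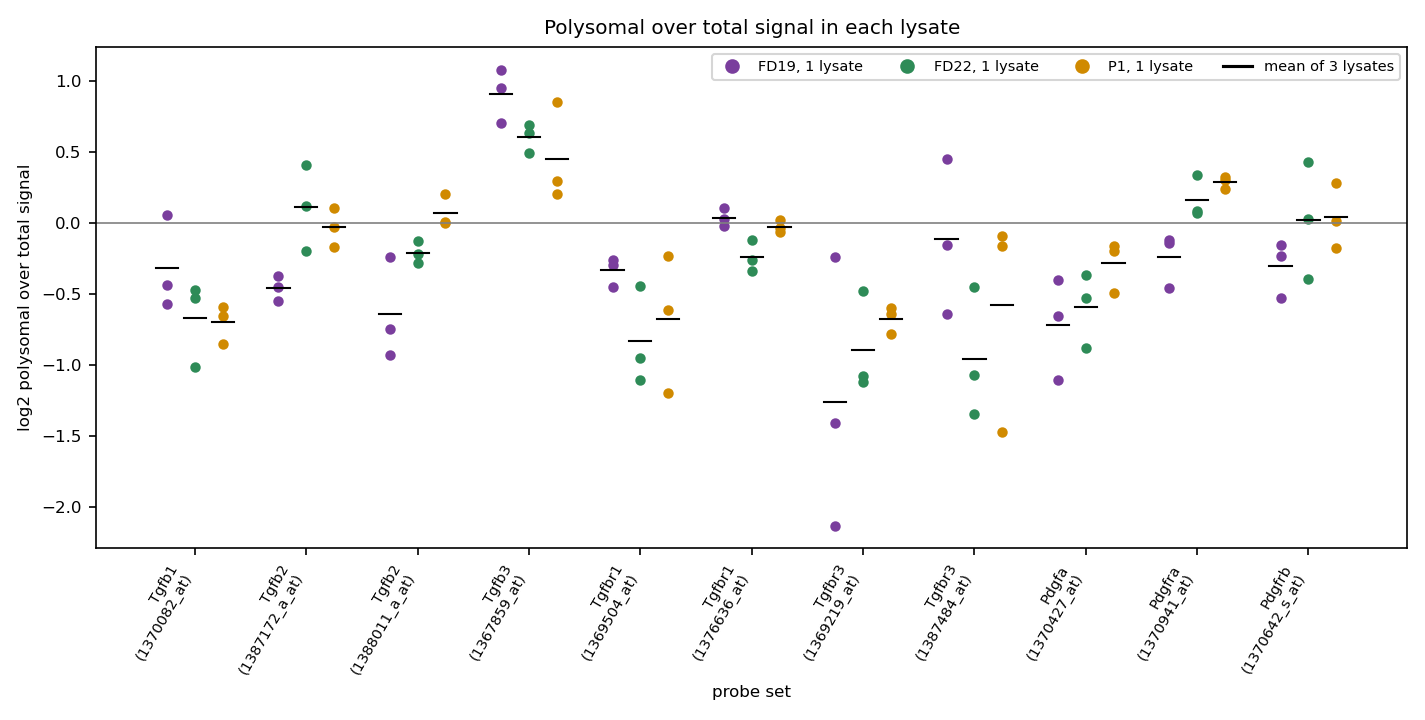
Polysomal over total signal (log2) of the 11 tested probe sets in each of the 9 lysates, coloured by stage, with bars at the means of 3 lysates. All 9 Tgfb3 points lie above 0, all 9 Pdgfa points lie below it, and Pdgfra lies below 0 at FD19 and above it at FD22 and P1.

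Among genes that release TGF-beta, assist its receptors or carry its signal, 23 of 26 listed genes were tested. In total RNA 3 rose and 1 fell from FD19 to FD22, 4 rose and 0 fell from FD22 to P1, and 6 rose and 3 fell from FD19 to P1, beside 16.2%, 3.97% and 26.2% of all probe sets called in either direction. On polysomes the counts were 2 and 1, 3 and 0, and 7 and 0, beside 15.9%, 8.34% and 28.9%. Counts of this and the following lists are of genes, each by its brightest kept probe set. The shares are of all tested probe sets, dim ones included, so counts and shares are not strictly alike. With the arrays numbered 2 and 3 alone, total RNA across birth gave 2 and 0, and polysomal RNA from FD19 to P1 gave 4 and 1. The list's median difference from FD19 to P1 was 0.21 in total RNA, beside -0.03 for all probe sets.

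Eng and Acvrl1, both of endothelium, rose most from FD19 to P1 among the genes of that list whose mean signals at both stages were above the filter. Eng, the endothelial co-receptor endoglin, went from 269.7 ± 30.1 at FD19 to 373 ± 94.4 at FD22 and 771 ± 72.4 at P1 in total RNA (P1 against FD19 1.50 ± 0.17, adjusted p = 2.35e-06). Acvrl1, the type I receptor of endothelium, went from 206 ± 27.4 to 403 ± 96.7 and 487 ± 76.3, and its rise came before birth (0.93 ± 0.22 from FD19 to FD22, adjusted p = 0.00701). Summed signals of 4 of 5 endothelial marker genes were 1770.7 to 1907.5, 2919.9 to 3152.3 and 2616.1 to 3008.1 over the stages, and their part in these values was not tested. Lrrc32, which tethers latent TGF-beta to the surface of platelets and regulatory T cells, had a total signal of 6.13 ± 0.31 at FD19 and 93.7 ± 31.9 at P1. On polysomes it had 20.2 ± 2.73 at FD19 and 134.2 ± 55.2 at P1. Its FD19 means were under the filter of 40.8, so its calls in the counts above rest on a signal at background and no fold is given.

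Furin, the protease that cuts the TGF-beta precursor, rose in total RNA from 232 ± 13.1 at FD19 to 320.1 ± 9.04 at FD22 and 429 ± 6.86 at P1 (P1 against FD19 0.87 ± 0.11, adjusted p = 9.3e-06). Its ratio was high at FD19 (0.66 ± 0.11, adjusted p = 0.000406). Smad4, the common partner of the receptor-activated SMADs, was higher on polysomes at each stage, with ratios of 0.71 ± 0.11, 0.61 ± 0.11 and 0.70 ± 0.11 (adjusted p of 0.000227, 0.00119 and 0.000283). In total RNA its signals were 483 ± 14.5, 505 ± 42.7 and 579 ± 62.3. Over the list, 4 ratios were called higher and 1 lower at FD19, 4 and 1 at FD22, and 2 and 1 at P1, beside 20.9%, 15.4% and 18.5% of all probe sets. The higher ones at FD19 and FD22 include Lrrc32, whose signals were then under the filter. With median centring the counts were 4 and 0, 4 and 0, and 3 and 0, and with quantile normalization 4 and 0, 3 and 2, and 2 and 1. Among all probe sets tested, centring called 3543 higher and 1283 lower, 3593 and 907, and 3415 and 1135. Quantile normalization called 2329 higher and 1899 lower, 1688 and 1409, and 1821 and 1592.

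Of 10 genes known as targets of TGF-beta, 9 were tested. Total RNA gave 1 higher and 1 lower from FD19 to FD22, 3 and 0 from FD22 to P1, and 4 and 2 from FD19 to P1, and polysomal RNA gave 2 and 1, 2 and 0, and 4 and 0. The shares of all probe sets were 16.2%, 3.97% and 26.2% in total RNA and 15.9%, 8.34% and 28.9% on polysomes. Ccn2, a matricellular growth factor gene that also responds to stretch, stood at 733 ± 80.2, 733 ± 132 and 2220.1 ± 53.8 in total RNA, a rise across birth of 1.61 ± 0.14 (adjusted p = 2.22e-06). On polysomes it rose by 1.52 ± 0.14 (adjusted p = 8.85e-06). Pmepa1, a feedback inhibitor of SMAD signalling, rose across birth in total RNA by 0.92 ± 0.17 (adjusted p = 0.0032). Tgfbi, a matrix protein gene, fell from 966 ± 94.6 to 624 ± 20.5 between FD19 and FD22 (-0.62 ± 0.12, adjusted p = 0.000965). These members moved in different directions and at different times, and several respond to other signals as well.

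Col1a1, Col3a1 and Fn1 were low on large polysomes, with their lowest ratios at FD19. Col1a1 and Col3a1, which encode fibrillar collagen chains, had ratios of -1.06 ± 0.11 (adjusted p = 4.62e-06) and -1.08 ± 0.11 (3.28e-06) at FD19. Fn1, the fibronectin gene, had -1.11 ± 0.12 at FD19 (6.6e-06) and -0.63 ± 0.12 at FD22 (0.00166). At FD22 the calls of Col1a1, Col3a1 and Fn1 ended with quantile normalization, with adjusted p of 0.320, 0.0987 and 0.0989. At P1 the ratios of Col1a1 and Col3a1 were -0.67 (adjusted p = 0.000394) and -0.66 (0.000388), and 0 of 13 alternatives ended either call. Fn1 had -0.36 at P1 (0.0459), a call that ended in 9 of 13 alternatives. Of the 9 targets, 3, 3 and 4 were called lower at FD19, FD22 and P1 and 0 higher at any stage, beside 20.9%, 15.4% and 18.5% of all probe sets in either direction. With quantile normalization 4, 0 and 3 were lower and 1 higher at each stage, and with median centring 3, 3 and 2 were lower and 1, 1 and 2 higher. The calls of all probe sets under these scalings are those given above with Furin and Smad4. Fn1 signal on polysomes rose from 959 ± 147 at FD19 to 2131 ± 229 at FD22 (1.15 ± 0.12, adjusted p = 5.62e-06), and in total RNA from 2066 ± 244 to 3297 ± 41.3.

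Of 17 further PDGF genes (ligands C and D, an activator and proteins that bind the receptors or ligands), 16 were tested. Total RNA gave 1 higher and 0 lower from FD19 to FD22, and 1 and 1 both from FD22 to P1 and from FD19 to P1. Polysomal RNA gave 2 and 1, 1 and 1, and 3 and 2. The shares of all probe sets are those given for the TGF-beta targets. Plat, the plasminogen activator that cleaves and activates PDGF-C, rose at each step in total RNA, from 389.8 ± 61.1 to 690.3 ± 138 and 1306 ± 123 (0.81 ± 0.18 and 0.93 ± 0.18, adjusted p of 0.00331 and 0.00446). Pik3r1, the regulatory subunit of the lipid kinase that binds activated PDGF receptors, fell across birth from 596 ± 50.6 to 247 ± 48.3 (-1.27 ± 0.17, adjusted p = 0.000281), and on polysomes by 1.04 ± 0.17 (adjusted p = 0.001). Ptpn11, a phosphatase that binds the receptors, had ratios of 0.62 ± 0.12 at FD19 (adjusted p = 0.0012) and 0.56 ± 0.12 at P1 (0.00282). In all, 3 ratios were called higher and 0 lower at FD19, 0 and 1 at FD22, and 2 and 0 at P1, beside 20.9%, 15.4% and 18.5% of all. With median centring the counts were 6 and 0, 4 and 0, and 5 and 0, and with quantile normalization 3 and 1, 0 and 1, and 2 and 0. Centring also moved the calls of all probe sets upward, to 3543 higher and 1283 lower, 3593 and 907, and 3415 and 1135. The counts under it are therefore no result about PDGF genes.

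**Figure D4:**
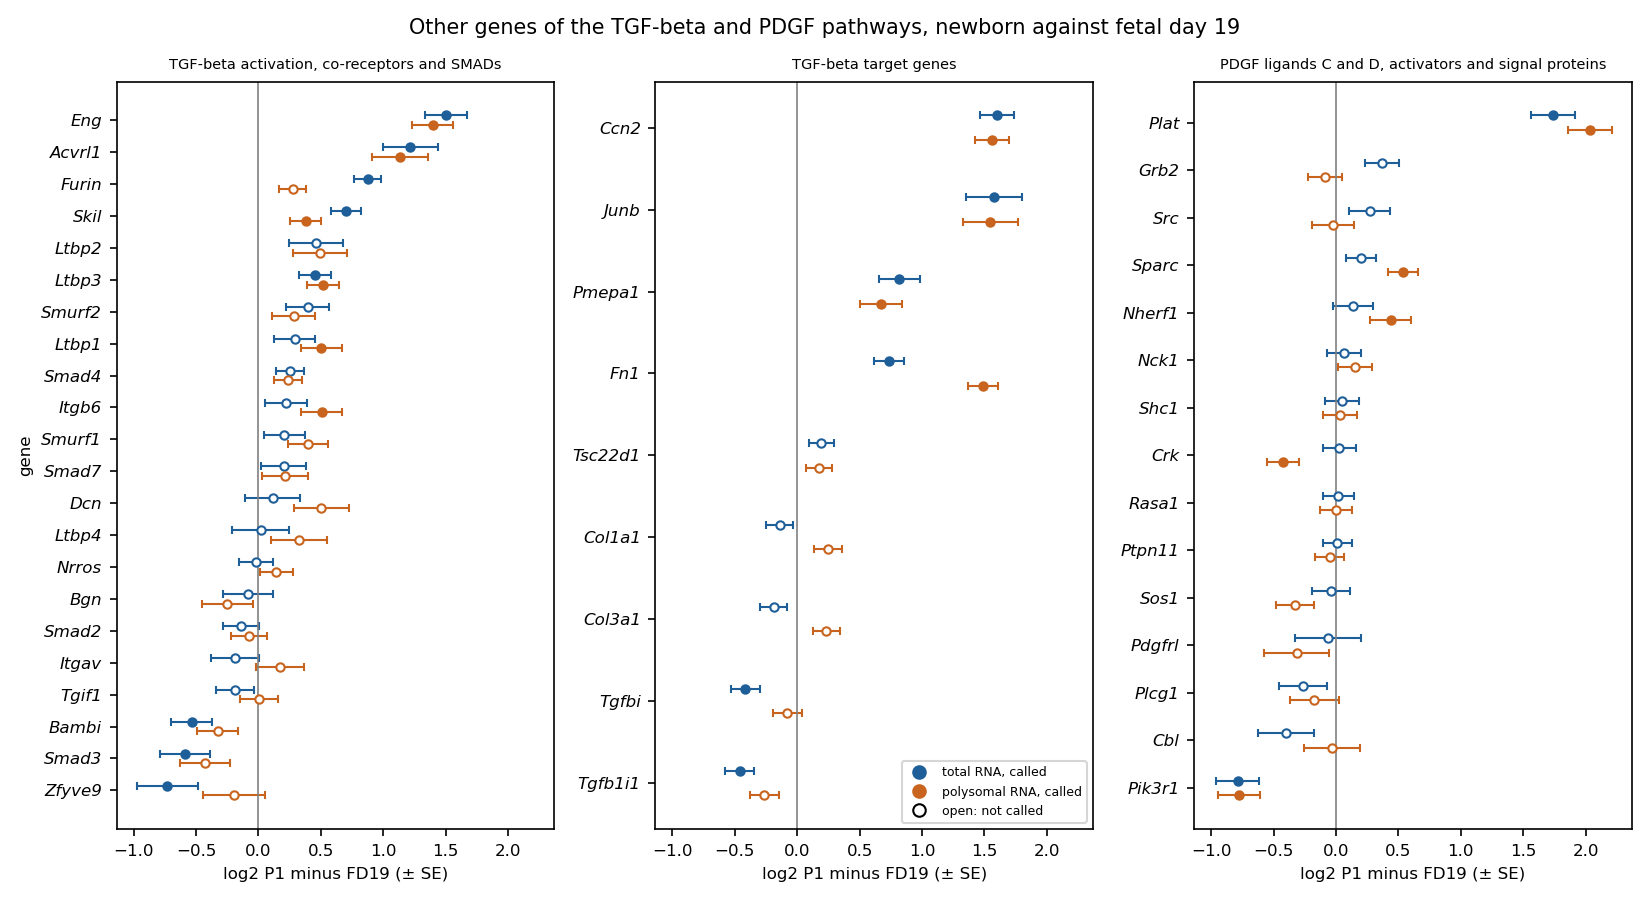
Difference between P1 and FD19 (log2 signal, points with SE) for the other tested genes of the TGF-beta and PDGF pathways, in total RNA (blue) and polysomal RNA (orange), filled where the adjusted p was under 0.05. Lrrc32 and Pdgfc are left out, since a mean signal was under the filter. Plat (1.74 in total RNA), Ccn2 (1.60) and Junb (1.57) lie furthest to the right, and Pik3r1 (-0.79) furthest to the left.

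The genes whose log2 signals over the 18 arrays were most like each member's are given as a description, since the arrays share lysates, stage and scaling. For Tgfb2 they were Nop58 (Pearson r = 0.941) and the embryonic globin gene Hbz (r = 0.909), 1 of the erythroid markers and above the filter on 3 of 18 arrays, for Tgfb1 Gas2l1 (0.933) and Sorbs3 (0.921), and for Tgfb3 Strn4 (0.931) and Cep43 (0.929). For Tgfbr1 they were Soat1 (0.910) and Slc7a7 (0.903), and for Tgfbr3 Kalrn (0.869) and Golph3 (0.855). The PDGF genes had Zfp318 (0.895) and Npff (0.887) for Pdgfa, Mccc1 (0.850) and Stt3b (0.816) for Pdgfra, and Gpd2 (0.817) and Lrch4 (0.765) for Pdgfrb.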

How the data were processed

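Per the submitters' processing notes, the array files were made with GCOS 1.4. The deposited table holds linear intensity per probe set; the signal algorithm and genome build are not given in the sources used here. The authors' scaling left a 2% trimmed mean of 150.03 to 150.04 on each array. Of 31099 probe sets, 57 controls were left out, and those above 40.8 (the 40th percentile of all values) on at least 3 of 18 arrays were kept, 21675. Probe sets were named through the platform annotation and the GRCr8 gene table. limma 3.58.1 in R 4.3.3 was fitted to log2(signal + 5.5), the constant being the 10th percentile, with 6 group means, a variance trend and 12 residual degrees of freedom. The 12 comparisons were adjusted by the Benjamini-Hochberg method, threshold 0.05, and the fit was tested on simulated data. The number of arrays limits the precision. Figures came from matplotlib 3.10.9 and pandas 2.3.3 under Python 3.11.15.

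Total and polysomal arrays of 1 number and stage share a lysate per the design, and what each deviated by from its group mean was positively correlated in all 9 lysates (r from 0.186 to 0.488). A further fit therefore had the lysate as a block, leaving 6 residual degrees of freedom. Arrays of different stages with equal numbers deviated together, with all 3 correlations over 0.1, for total RNA at FD19 and P1 (0.119 to 0.313) and polysomal RNA at FD19 and FD22 (0.226 to 0.498); the labels name no shared litter or day. For the other 4 stage pairs at least 1 correlation was under 0.1. Leaving out a replicate removes both arrays of its lysate. Alternatives were a constant at the 1st or the 30th percentile, no filter, the 60th percentile (96.4) as the filter, quantile normalization, median centring, no variance trend, only the groups compared, the blocks, leaving out each lysate, and the arrays numbered 2 and 3 alone. All member probe sets are given. A gene of another list stands for its brightest kept probe set, and named genes are a selection of the called ones with the smallest adjusted p. The members and lists were chosen with earlier results of these data known.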

Additional observations from a re-analysis of the deposited data

How the results depend on the processing

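Of 21 called results of single probe sets, 7 were called under each alternative run, all of Tgfb2 (1387172_a_at in the 4 comparisons of FD22 or P1 with FD19, 1388011_a_at in the same except polysomal P1); 15 further results were called under an alternative alone, and 0 reversed. Counts of the 11 probe sets moved by over 1.5 times as follows. With the arrays numbered 2 and 3 alone they were 2 for total RNA from FD19 to FD22 (4 otherwise), 2 for polysomal RNA from FD19 to P1 (5) and 2 for the FD19 ratio (4). Total RNA from FD19 to P1 (3) gave 5 with the 60th percentile filter, quantile normalization, only the groups compared, or the replicate number as a block. Without a filter polysomal RNA from FD19 to P1 gave 3. The FD22 ratio (2) gave 1 without a filter, with median centring or with only the groups compared, and 6 with the lysate block. The P1 ratio (1) gave 0 without a filter, with quantile normalization or without a variance trend, 2 with median centring and 3 with the lysate block. Without 1 lysate the counts were 2 to 4 (total, FD19 to FD22), 3 to 4 (total, FD19 to P1), 2 to 3 (polysomal, FD19 to FD22), 2 to 3 (polysomal, FD19 to P1), 1 to 2 (FD19 ratio), 0 to 1 (FD22 ratio), 0 to 0 (P1 ratio), and 0 to 0 across birth and for the ratio changes. For 4 stage pairs the correlations did not bear out the shared numbers. There a replicate block on the number gave 5 (4) for total RNA from FD19 to FD22, adding Tgfb1 (adjusted p = 0.0202), and 5 (5) for polysomal RNA from FD19 to P1, with Tgfb2 1388011_a_at gained (0.0485) and Tgfbr3 1369219_at lost (0.0542); 4 of 6 arrays in each correlated best with their own number. The cause of these moves was not tested. With the replicate number as a block, 18.8% of all probe sets were called in total RNA from FD19 to FD22. From FD19 to P1 that block gave 29.2% in total RNA and 34.5% on polysomes. With the lysate block the shares for the FD22 and P1 ratios were 26.1% and 27.9%. For the other settings no share of all probe sets is given here, so those counts show nothing particular to the 11. With 3 arrays per group, changes near the standard error of dim probe sets such as Tgfbr3 1369219_at would not pass the test.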
